A study of Mus musculus with 4 samples.

Results

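The genes examined here make, break down, bind or sense retinoic acid in the mouse testis. They are *Rdh10*, *Aldh1a1*, *Aldh1a2*, *Aldh1a3*, *Cyp26a1*, *Cyp26b1*, *Rara*, *Rarg* and *Crabp1*, 9 genes chosen by name for their part in retinoid supply ahead of meiotic entry, out of 55820 loci in the deposited table. All 9 had a row and passed the filter on low counts. The libraries were made from RNA of whole testes of male C57BL/6J mice at postnatal day 10 (P10), with 2 libraries from mice labelled control and 2 from mice labelled Mps1 Stra8-cre knockout (Mps1sKO). In Mps1sKO mice, Cre recombinase driven by *Stra8* deletes *Mps1* in germ cells from early spermatogonia onward. Neither the alleles carried by the control mice nor the number of mice behind a library was given, although the submitters call the libraries of a genotype biological replicates.

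Retinoic acid is made from vitamin A in a pair of oxidation steps. Retinol dehydrogenases such as RDH10 turn retinol into retinaldehyde, and the ALDH1A enzymes turn retinaldehyde into retinoic acid. CYP26 enzymes hydroxylate retinoic acid and so remove it, CRABP proteins bind it in the cytoplasm, and the receptors RARA, RARB and RARG bind it in the nucleus together with RXR partners. In the postnatal testis, retinoic acid drives spermatogonia to differentiate and then to enter meiosis, a step marked by *Stra8*. Sertoli cells are a main source of it at the first wave of spermatogenesis.

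The libraries held between 23311689 and 28607746 counts. The targeted gene *Ttk*, which encodes MPS1, was at 27.9 and 32.6 CPM (counts divided by the library total after edgeR's TMM scaling) in control and at 13.0 and 12.2 in Mps1sKO testes, and its log2 fold change of −1.26 passed edgeR's test with an adjusted p of 0.0461. Marker lists moved with genotype. All 7 tested germ cell markers were lower in both Mps1sKO libraries than in both control libraries, against 21.1% of all tested loci. Their median log2 fold change was −0.41, and their summed level was 1176 and 1386 CPM in control against 1087 and 825. Of 9 spermatocyte markers, 8 were lower in the same way (median −0.61). Of 15 Sertoli markers, 13 had a positive log2 fold change (median 0.25). Both Mps1sKO libraries were above both control libraries for 6 of the 15, against 20.3% of all tested loci, and below for 0. The summed Sertoli level was 6727 and 6979 CPM in control against 8667 and 7919 in Mps1sKO. The largest part of this sum was *Clu*, at 2900 and 3586 CPM in control and 4399 and 3319 in Mps1sKO, with overlapping groups. With edgeR, 3 of 10 markers of undifferentiated spermatogonia were lower at an unadjusted p below 0.05, against 5.37% of all tested loci. Of 6 markers of differentiating spermatogonia, 4 were lower at that threshold and 1 was higher, against 5.37% and 3.92% of the loci. Among 8 Leydig, 6 peritubular myoid, 6 macrophage and 6 endothelial markers, 0 had an unadjusted p below 0.05. Of these, 4 peritubular myoid markers and 1 macrophage marker were lower in both Mps1sKO libraries than in both control libraries. The 2 Leydig and 2 endothelial markers without overlap were higher. No marker passed an adjusted p of 0.05. *Ddx4*, which defines germ cells, was at 196, 221, 175 and 139 CPM in control replicates 1 and 2 and Mps1sKO replicates 1 and 2. *Sox9*, which defines Sertoli cells, was at 156, 123, 153 and 182, and *Amh*, the Sertoli hormone, ran from 114 to 337 with overlapping groups. Both cell types were thus present in every library, as was *Cyp17a1* of Leydig cells at 117 to 173 CPM. In whole testis, fewer cells of a type and less RNA per cell cannot be told apart.

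Levels were compared between genes per kilobase of gene length, in the FPKM values that the authors deposited. *Aldh1a1* was the highest of the 9, at 199 ± 23.2 FPKM (SD over 4 libraries), above 99.4% of the tested loci. *Cyp26b1* (72.9 ± 8.0) and *Crabp1* (70.8 ± 16.6) came next. The order of these neighbours differed between the genotypes. In control, *Crabp1* was above *Cyp26b1* in both libraries, at 77.7 and 90.0 against 71.6 and 63.4 FPKM. In Mps1sKO, *Crabp1* was below *Cyp26b1* in both, at 63.6 and 51.9 against 82.8 and 73.8 FPKM. *Aldh1a2* followed at 26.9 ± 3.74 FPKM and *Rara* at 20.5 ± 3.35. Their ranges over the 4 libraries overlapped, yet *Aldh1a2* was above *Rara* in each library. *Rdh10* (7.35 ± 0.769) and *Rarg* (6.09 ± 0.907) were likewise close, with *Rdh10* above *Rarg* in 4 of 4 libraries. The lowest levels were those of *Aldh1a3*, at 3.19 ± 0.192, and *Cyp26a1*, at 2.0 ± 0.31 FPKM, which was still above 37.6% of the tested loci. By the mean over the 4 libraries, the most abundant enzymes of synthesis and of breakdown thus stood at the top of the same list. In the control libraries, *Crabp1* lay between them.

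**Figure D1:**
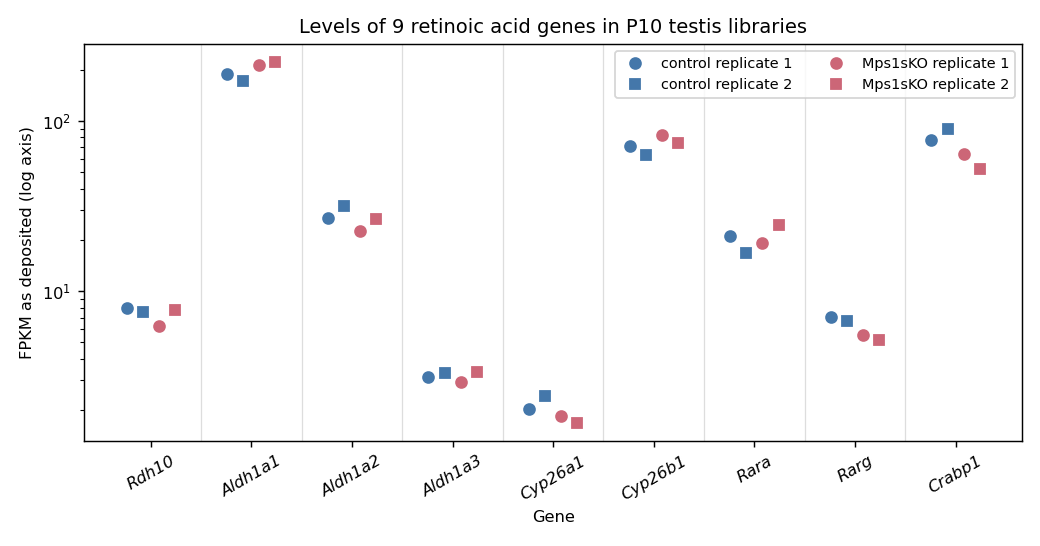
Deposited FPKM (log axis) of the 9 genes, with a point for each library, blue for control and red for Mps1sKO. The levels run from *Aldh1a1* at 172 to 222 FPKM down to *Cyp26a1* at 1.69 to 2.41, and the ranges of *Cyp26b1* and *Crabp1*, of *Aldh1a2* and *Rara*, and of *Rdh10* and *Rarg* overlap.

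*Rdh10* encodes a retinol dehydrogenase of the first step and lies on chromosome 1 from 16105774 to 16133734 (GRCm38, plus strand). Its level was 33.3 and 31.5 CPM in control and 26.0 and 32.2 in Mps1sKO testes. Mps1sKO replicate 2 lay between the control libraries, so the groups overlapped. The log2 fold change of Mps1sKO relative to control was −0.15 with a 95% interval from −0.45 to 0.14 (edgeR's quasi-likelihood test, adjusted p = 0.732). It was −0.00541 without Mps1sKO replicate 1 and −0.31 without Mps1sKO replicate 2 (unadjusted p = 0.0378 from edgeR).

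*Aldh1a1* (chromosome 19 from 20492715 to 20643465, plus strand) encodes a retinaldehyde dehydrogenase made by Sertoli cells, among others. It was at 935 and 857 CPM in control and at 1064 and 1099 in Mps1sKO testes. Both Mps1sKO libraries lay above both control libraries. The group means were 896 ± 54.9 and 1082 ± 25 CPM (SD, n = 2 each). This gave a log2 fold change of 0.27 with a standard error of 0.0887 and a 95% interval from 0.07 to 0.48. Its unadjusted p was 0.0163 and its adjusted p 0.497 in edgeR's test, so the difference did not pass an adjusted p of 0.05. Without control replicate 2 the log2 fold change was 0.21 (unadjusted p = 0.175 from edgeR). A near copy, *Aldh1a7*, lies next to it on chromosome 19, and 3.06% of all 50-base windows in the *Aldh1a1* transcripts also occur in *Aldh1a7*. In the other direction this held for 7.49% of the *Aldh1a7* windows, so a part of the *Aldh1a7* counts may be uncertain. *Aldh1a7* itself was at 21 and 20.4 CPM in control and 25.3 and 24.7 in Mps1sKO (log2 fold change 0.27). The ratio of *Aldh1a1* to *Aldh1a7* in FPKM was 18.6 and 17.6 in control and 17.6 and 18.6 in Mps1sKO testes.

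*Aldh1a2* (chromosome 9 from 71215789 to 71296243, plus strand) encodes the form of the enzyme found in germ cells of the testis. It was at 61.3 and 72.2 CPM in control and at 51.3 and 60.4 in Mps1sKO testes. Both Mps1sKO libraries were below both control libraries, but control replicate 1 and Mps1sKO replicate 2 were nearly level. The log2 fold change was −0.26 (95% interval from −0.54 to 0.03, adjusted p = 0.567 from edgeR). It was −0.13 without control replicate 2. Without control replicate 1 it was −0.37 (unadjusted p = 0.0244 from edgeR) and without Mps1sKO replicate 2 it was −0.38 (unadjusted p = 0.0151 from edgeR). *Aldh1a3* (chromosome 7 from 66390890 to 66427517, minus strand), the third retinaldehyde dehydrogenase, was at 14.6 and 15.3 CPM in control and 13.6 and 15.6 in Mps1sKO testes. Its groups overlapped, and the interval of its log2 fold change ran from −0.34 to 0.28.

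The makeup of the ALDH1A family within a library does not depend on how libraries are scaled to each other. *Aldh1a1* made up 86.2% and 83.1% of the summed FPKM of the 3 genes in control testes and 89.4% and 88.1% in Mps1sKO testes. *Aldh1a2* made up 12.3% and 15.3% in control and 9.40% and 10.6% in Mps1sKO. Its share was therefore lower in both Mps1sKO libraries, with a mean difference of −3.82 percentage points (13.8% ± 2.09 against 9.98% ± 0.819, SD, n = 2 each). The exact two-sided permutation test gave p = 0.333, which is the smallest p that 2 libraries against 2 allow. *Aldh1a3* took 1.22% to 1.59%. With *Aldh1a7* added to the sum, the share of *Aldh1a2* was 13.2% in control and 9.51% in Mps1sKO testes.

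*Cyp26b1* (chromosome 6 from 84571414 to 84593908, minus strand) encodes the retinoic acid hydroxylase that shields germ cells of the fetal testis from retinoic acid. It was at 387 and 341 CPM in control and at 446 and 396 in Mps1sKO testes. Both Mps1sKO libraries were above both control libraries, with control replicate 1 and Mps1sKO replicate 2 close together. The log2 fold change was 0.21 (95% interval from −0.03 to 0.45, adjusted p = 0.583 from edgeR), and 0.12 without control replicate 2 or without Mps1sKO replicate 1. Without Mps1sKO replicate 2 it was 0.29 (unadjusted p = 0.0207 from edgeR). *Cyp26b1* made up 96.5% and 95.3% of the summed CYP26 FPKM in control and 96.8% and 97.1% in Mps1sKO testes. Set against synthesis, the summed ALDH1A FPKM was 2.93 and 3.12 times the summed CYP26 FPKM in control and 2.81 and 3.32 times in Mps1sKO testes. These ratios of RNA levels overlapped between the genotypes. They are not rates of the enzymes.

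*Cyp26a1* (chromosome 19 from 37697798 to 37701536, plus strand) encodes a related hydroxylase and is a classic target of retinoic acid itself, through a response element near its start. That element is a direct repeat in which a hexamer is followed, after 5 bases, by another hexamer on the same strand, where each may be AGGTCA or AGTTCA and also GGGTCA or GGTTCA. It was searched on both strands of the RefSeq promoter windows on GRCm38, each 300 bases long. Of 32851 windows, 32 (0.0974%) held it. Of the 9 genes, 7 had an entry, with 12 windows between them, and 1 of these windows, at *Cyp26a1*, held the repeat. Among the other retinoid genes listed for this work it was found at *Rarb*, another known target. The stretch of 200 bases upstream of *Cyp26a1*, chr19:37697598-37697797 on the plus strand, is shown because it carries this repeat, in capitals, which ends 15 bases before the RefSeq start of transcription. At *Rarb* only the repeat is given, from the minus strand of chr14:16575513-16575529.
Cyp26a1: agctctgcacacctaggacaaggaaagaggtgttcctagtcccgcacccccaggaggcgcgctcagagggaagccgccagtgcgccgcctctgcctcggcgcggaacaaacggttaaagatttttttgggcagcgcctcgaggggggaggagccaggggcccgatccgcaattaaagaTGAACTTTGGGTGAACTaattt
Rarb: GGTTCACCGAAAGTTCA
In Cyp26a1 the hexamers read on the opposite strand. Direct repeats of the same hexamers with 2 bases between them, another spacing used by these receptors, were found in 0.268% of all windows and in none of the 12 windows of the 9 genes. No match says only that these letters are not in the window, and a match is not evidence of binding.

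The control libraries held 110 and 139 reads of *Cyp26a1* and the Mps1sKO libraries 86 and 90, which is 4.08 and 4.82 CPM against 3.71 and 3.36. Both Mps1sKO libraries lay below both control libraries. With so few counts the log2 fold change of −0.33 had a wide 95% interval, from −0.79 to 0.12 (adjusted p = 0.619 from edgeR). *Rarb* was lower still, at 0.706 and 0.728 CPM in control and 0.388 and 0.597 in Mps1sKO testes (log2 fold change −0.52, adjusted p = 0.698 from edgeR). It shares exon bases with *Top2b* and *Gm48162* on the other strand, so its counts may be uncertain in either direction. Neither *Cyp26a1* nor *Rarb* passed the test.

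*Rara* (chromosome 11 from 98927818 to 98974942, plus strand) encodes the receptor that acts mainly in Sertoli cells. It was at 93.4 and 73.3 CPM in control and at 84.7 and 108 in Mps1sKO testes. The groups overlapped, since Mps1sKO replicate 1 lay between the control libraries. The log2 fold change was 0.21 (95% interval from −0.14 to 0.56, adjusted p = 0.684 from edgeR) and ranged from 0.0235 without Mps1sKO replicate 2 to 0.39 without control replicate 1. The unadjusted p from edgeR was 0.0234 without control replicate 1 and 0.0208 without Mps1sKO replicate 1. *Rara* and *Sox9* had the same order over the 4 libraries, lowest in control replicate 2 and highest in Mps1sKO replicate 2.

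*Rarg* (chromosome 15 from 102234938 to 102257517, minus strand) encodes the receptor of spermatogonia. It was at 30.3 and 28.5 CPM in control and at 23.6 and 21.9 in Mps1sKO testes. Libraries of a genotype were close, and both Mps1sKO libraries lay below both control libraries. The means were 29.4 ± 1.27 and 22.8 ± 1.18 CPM (SD, n = 2 each), so Mps1sKO stood at 77.5% of control. On the log2 scale the fold change was −0.37 with a standard error of 0.108 and a 95% interval from −0.62 to −0.12. The unadjusted p was 0.0100 and the adjusted p 0.494 from edgeR. Without control replicate 1 it was −0.33 (unadjusted p = 0.0826 from edgeR). Within the receptor family, *Rara* took 74.7% and 71.1% of the summed FPKM of *Rara*, *Rarb* and *Rarg* in control and 77.6% and 82.4% in Mps1sKO testes, and *Rarg* took 24.8% and 28.3% against 22.1% and 17.2%. *Rara* was 3.01 and 2.51 times *Rarg* in control and 3.50 and 4.80 times in Mps1sKO testes. The exact two-sided permutation test of this ratio gave p = 0.333, the smallest possible here.

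**Figure D2:**
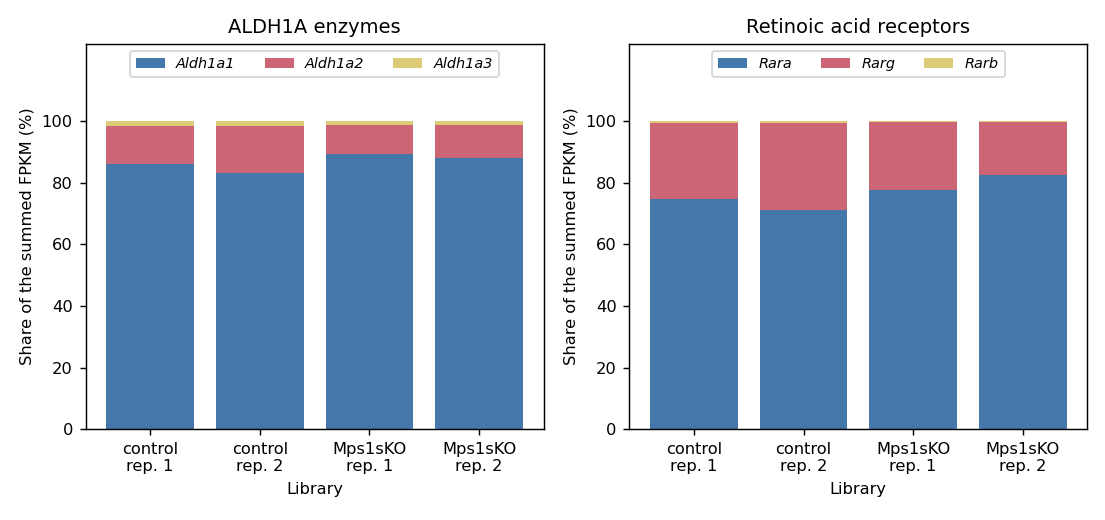
Share of each gene in the summed FPKM of its family (%), with a bar for each library, for the ALDH1A enzymes on the left and the retinoic acid receptors on the right. *Aldh1a1* and *Rara* make up most of their families in every library, *Aldh1a2* takes 9.40% to 15.3%, and *Rarg* takes 17.2% to 28.3% with the lower shares in Mps1sKO.

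*Crabp1* (chromosome 9 from 54764748 to 54773110, plus strand) encodes a cytoplasmic binding protein for retinoic acid that is found in spermatogonia. Of the 9 genes it had the largest log2 fold change in size. It was at 62.9 and 72.7 CPM in control and at 51.2 and 41.7 in Mps1sKO testes. Both Mps1sKO libraries lay below both control libraries. The means were 67.8 ± 6.93 and 46.5 ± 6.75 CPM (SD, n = 2 each), and Mps1sKO stood at 68.5% of control. Its log2 fold change was −0.55 with a standard error of 0.128 and a 95% interval from −0.84 to −0.25. In edgeR's test the unadjusted p was 0.00306 and the adjusted p 0.494. DESeq2 gave an adjusted p of 0.0959. Over all the settings tried, edgeR's adjusted p ran from 0.00072, without a filter on low counts, to 0.915, with the replicate number as a block. Leaving out any 1 library kept the log2 fold change between −0.70 and −0.40, and without control replicate 1 the adjusted p was 0.0310.

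**Figure D3:**
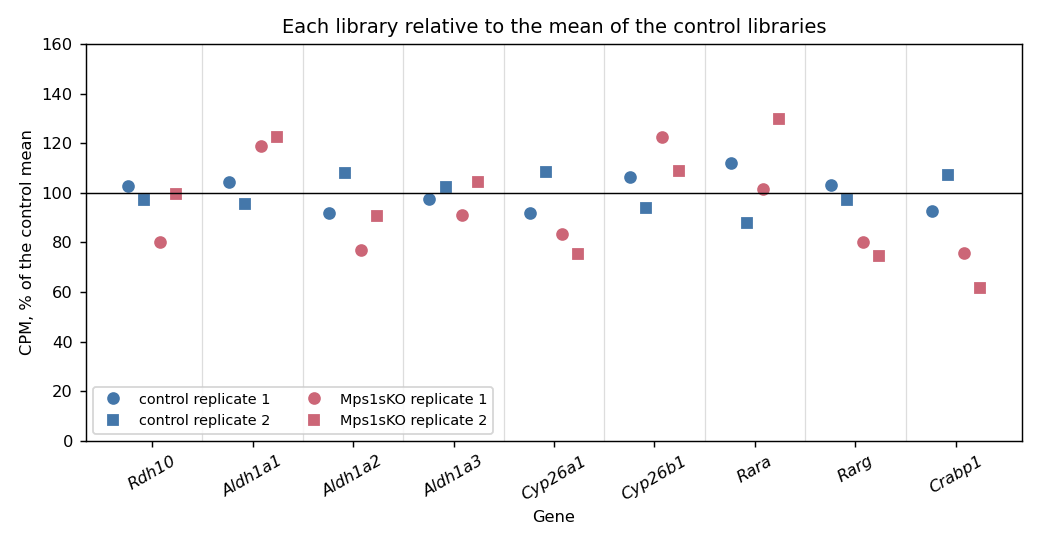
Level of each gene in each library as a percentage of the mean of the control libraries (CPM). *Crabp1* and *Rarg* lie below the control points in both Mps1sKO libraries, *Aldh1a1* lies above them, and *Rdh10*, *Aldh1a3* and *Rara* overlap.

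Taken as a group, 3 of the 9 genes had an unadjusted p below 0.05 in edgeR's test, against 9.3% of all tested loci. In 1 of these, *Aldh1a1*, the level was higher in Mps1sKO, against 3.92% of all tested loci, and in 2, *Rarg* and *Crabp1*, it was lower, against 5.37%. None passed an adjusted p of 0.05, a threshold that 6 of 20561 loci (0.0292%) passed. For 6 of the 9, the groups did not overlap, against 41.4% of all tested loci. Mps1sKO was lower in 4 (*Aldh1a2*, *Cyp26a1*, *Rarg* and *Crabp1*), against 21.1% of the loci, and higher in 2 (*Aldh1a1* and *Cyp26b1*), against 20.3%. The median log2 fold change was −0.15 against 0.00027 over all tested loci. The count at an unadjusted p below 0.05 was 2 without control replicate 2 and 6 without Mps1sKO replicate 2, where the share over all tested loci was 3.77% and 9.36%.

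**Figure D4:**
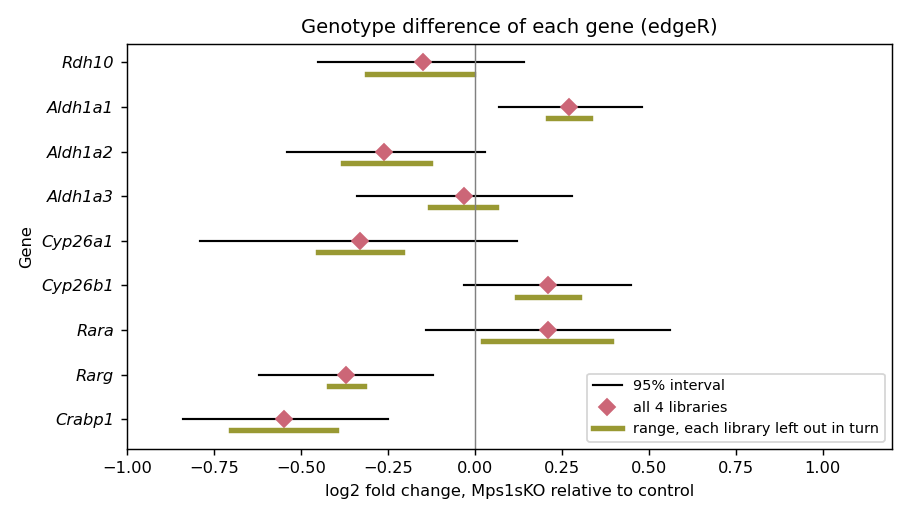
log2 fold change of Mps1sKO relative to control for each gene, with its 95% interval from edgeR (black) and the range of the value when each library is left out in turn (olive). The intervals of *Aldh1a1*, *Rarg* and *Crabp1* do not include 0, before adjustment for the number of loci, and the range of *Aldh1a3* spans 0.

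Because Sertoli and germ cell markers also differed between the genotypes, each gene was set against both marker lists in the same library. The measure is the log2 ratio of its CPM to the geometric mean CPM of a list, which needs no scaling between libraries. Relative to 15 Sertoli markers, the mean difference between Mps1sKO and control was 0.04 for *Aldh1a1*, −0.02 for *Cyp26b1* and −0.02 for *Rara*. For *Crabp1* it was −0.78, for *Rarg* −0.60, for *Cyp26a1* −0.56 and for *Aldh1a2* −0.49, with both Mps1sKO libraries below both control libraries. *Rdh10* and *Aldh1a3*, at −0.39 and −0.27, were also below in both, although their groups overlapped in CPM. The geometric mean of the Sertoli list was itself 164 and 152 CPM in control and 182 and 190 in Mps1sKO testes. A gene of equal CPM in all libraries is therefore lower in Mps1sKO on this measure. The share of all tested loci without overlap on this measure was not computed.

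Relative to 7 germ cell markers, *Crabp1* differed by −0.08, *Rarg* by 0.10 and *Cyp26a1* by 0.14, while *Aldh1a1* differed by 0.75, *Cyp26b1* by 0.68 and *Rara* by 0.68. *Aldh1a2* stood at 0.22 and *Rdh10* at 0.31 with overlapping groups, and *Aldh1a3* at 0.44 without overlap. The geometric mean of the germ cell list was itself 109 and 121 CPM in control and 92.5 and 73.6 in Mps1sKO testes. A gene of equal CPM in all libraries is therefore higher in Mps1sKO on this measure. The ratio of *Crabp1* to the germ cell markers was −0.79 and −0.73 in control and −0.85 and −0.82 in Mps1sKO testes. It was lower in both Mps1sKO libraries by a small amount. The share of all tested loci without overlap was not computed for this measure either. The differences of *Rara* and *Cyp26b1* against Sertoli markers were within the spread between libraries of a genotype, which reached 0.205 (SD) for *Rara*. With *Sox9* alone in place of the list, the groups of *Aldh1a1* overlapped and *Crabp1* differed by −0.82, and with *Ddx4* alone *Crabp1* differed by −0.13. The Leydig, peritubular myoid, macrophage and endothelial lists were not used as a reference, so a level near that of Sertoli markers is not shown to be particular to them. These are values without a test, and the part that cell composition has in the members' differences was not tested.

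**Figure D5:**
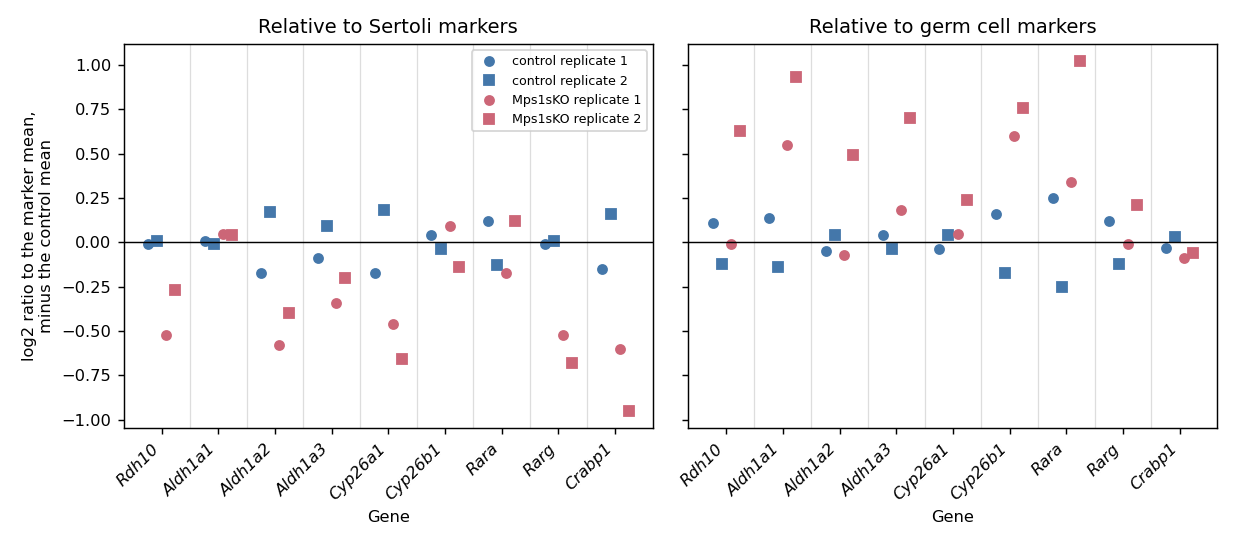
log2 ratio of each gene to the geometric mean of Sertoli markers (left) or germ cell markers (right) in the same library, with the control mean set to 0. Points for *Aldh1a1*, *Cyp26b1* and *Rara* lie near 0 on the left and, in Mps1sKO, above 0 on the right, whereas *Rarg* and *Crabp1* lie below 0 on the left and near 0 on the right.

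Other genes of the pathway were taken from a list of 41, of which 30 passed the filter on low counts. With edgeR, 4 had an unadjusted p below 0.05 with a higher level, against 3.92% of all tested loci, and 1 with a lower level, against 5.37%, and none had an adjusted p below 0.05. Both Mps1sKO libraries lay outside both control libraries for 15 of the 30, near the 41.4% of all tested loci, with 7 lower (21.1% of all tested loci) and 8 higher (20.3%). The median log2 fold change was 0.03. The adjusted p of these 5 was 0.494 to 0.522. Without control replicate 2, 0 of the 30 had an unadjusted p below 0.05 in edgeR's test, against 3.77% of all tested loci.

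Of the genes for uptake and storage of retinol, *Stra6*, the membrane receptor for retinol bound to its carrier, was at 35.8 and 31.1 CPM in control and 47.0 and 41.5 in Mps1sKO testes (log2 fold change 0.40, unadjusted p = 0.00876 from edgeR). *Rbp4*, the carrier of retinol in blood, was at 16.7 and 21.7 against 13.3 and 11.7 CPM (log2 fold change −0.62, unadjusted p = 0.00544 from edgeR). *Lrat*, which makes retinyl esters for storage, had a log2 fold change of −0.53 at only 1.04 to 1.53 CPM and did not pass an unadjusted p of 0.05. *Bco2*, a carotenoid-cleaving enzyme, stood at 0.0735.

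Among the dehydrogenases other than the members, only *Aldh1a7* had an unadjusted p below 0.05 (0.0351 from edgeR). *Adh5*, at 32.0 FPKM the highest of them, had a log2 fold change of 0.098, and *Adh1* and *Rdh14* had 0.22 and 0.0394. The binding proteins *Fabp5* and *Crabp2* stood at 0.17 and 0.0179. *Cyp26c1*, the remaining CYP26 gene, was low, at 0.858 to 1.47 CPM.

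Of the RXR partners, *Rxrb* was at 23.8 FPKM and *Rxra* at 14.9, with log2 fold changes of −0.15 and 0.00633. Among the coregulators of the receptors, the coactivator gene *Ncoa2* was at 230 and 231 CPM in control and 292 and 276 in Mps1sKO testes (log2 fold change 0.30, unadjusted p = 0.00819 from edgeR), and *Nrip1* at 58.6 and 58.8 against 75.7 and 67.9 (0.29, unadjusted p = 0.0172 from edgeR). The log2 fold changes of *Ncor1* and *Ncoa3* were 0.13 and −0.11.

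A last list held 13 genes known to respond to retinoic acid, and all were tested. With edgeR, 3 had an unadjusted p below 0.05 with a lower level, all of them germ cell genes, against 5.37% of all tested loci, and 1 with a higher level, *Stra6*, against 3.92%. The median log2 fold change was −0.25, and none had an adjusted p below 0.05. *Stra8* was at 112 and 151 CPM in control and at 86.7 and 65.5 in Mps1sKO testes, a log2 fold change of −0.79 (unadjusted p = 0.00213 from edgeR). *Gm4969*, also known as *Meiosin*, the partner of STRA8 at meiotic entry, was at 36.5 and 52.0 against 27.0 and 22.3 CPM (−0.85, unadjusted p = 0.00168 from edgeR). *Sohlh1*, a transcription factor gene of spermatogonia, was at 74.9 and 76.2 against 54.5 and 53.5 CPM (−0.49, unadjusted p = 0.000651 from edgeR). In *Kit*, the receptor of differentiating spermatogonia, and the meiotic cohesin gene *Rec8*, the groups overlapped, with log2 fold changes of −0.24 and −0.0708. The general targets *Tgm2* and *Dhrs3*, which are not particular to germ cells, had −0.0363 and −0.11, also with overlapping groups. The log2 fold changes in *Stra8* and *Gm4969* were larger in size than those in any of the 9 genes, although the difference between them was not tested. The same held for the median of the spermatocyte markers, −0.61, against −0.55 for *Crabp1*. The part that cell composition has in this contrast was not tested.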

How the data were processed

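RNA of whole P10 testes was sequenced by the authors as NEBNext Ultra paired-end libraries. The submitters' processing notes name HISAT2 2.0.5, featureCounts, DESeq2 1.16.1 and mm10, and strandedness is not given in the sources used here. The authors deposited raw counts and FPKM values per gene. Coordinates of the named members equal those of GENCODE M21 on GRCm38. Groups follow the sample titles.

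The genotype effect was tested on the counts in edgeR 4.0.16 under R 4.3.3 (filterByExpr with a minimum count of 10, TMM, quasi-likelihood F test on genotype, two-sided). The filter kept 20561 loci, and Benjamini-Hochberg adjustment ran over all of them. FPKM served for comparisons between genes and for shares. A count of 0 allows 3 counts, or 0.104 to 0.129 CPM, for counting error only. Alternatives were DESeq2 1.42.0, limma 3.58.1 (voom), other scalings and filters, a robust dispersion, replicate blocks and each library left out. The fits in edgeR, DESeq2 and limma-voom were tested on simulated counts.

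The members, lists and tests were chosen with earlier results of these data known. Named were all members, listed retinoid genes with an unadjusted p below 0.05, up to 3 others of the highest FPKM in each role, and a few markers; some genes that this rule names are not reported here. Of 8 germ cell markers, *Gcna* had no row of that name. Likeness of patterns was not ranked over 4 libraries.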

Additional observations from a re-analysis of the deposited data

How the results depend on the processing

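Each fold change of the 9 genes kept its direction under every alternative, apart from *Aldh1a3*, whose log2 fold change ran from −0.13 to 0.0606 with each library left out. Of the 9 genes, 3 had an unadjusted p below 0.05, against 5 without a filter on low counts (8.52% of all loci) and 2 to 6 with each library left out. At an adjusted p below 0.05, 0 genes passed, against 1 (*Crabp1*) without a filter and 0 to 1 with each library left out, the 1 being without control replicate 1. Over all loci that threshold gave 6, against 37 with DESeq2, 390 without a filter, 3 with at least 10 counts in every library, 3 with limma-voom and 17 to 199 with each library left out. Of the other retinoid genes 5 passed an unadjusted p of 0.05, against 0 to 5 with each library left out. The *Aldh1a2* share differed by −5.30 to −2.35 percentage points with each library left out. Deviations from the group mean in libraries of the same replicate number had a correlation of −0.238 over 20561 loci. With 2 libraries of each genotype, this cannot show whether the numbers pair the libraries. With the replicate number as a block, 2 loci passed an adjusted p of 0.05, 2 of the 9 genes (without *Aldh1a1*) and 3 of the other retinoid genes an unadjusted p of 0.05, against 5.05% of all loci. With the crossed pairing, chosen after seeing the data, 550 loci and 1 of the 9 genes passed the adjusted threshold, and 6 of the 9 and 9 of the other retinoid genes the unadjusted one, against 18.4% of all loci. Low counts limit *Cyp26a1*, *Rarb* and *Cyp26c1*.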
